A study of Mus musculus with 9 samples.

Results

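Conjugating enzymes make drugs, dietary chemicals, bile pigments and hormones soluble enough to be excreted. The genes described here are the protein-coding mouse genes of 10 such families: the UDP-glucuronosyltransferases Ugt1 and Ugt2, the sulfotransferases (Sult), the glutathione S-transferases Gsta, Gstm, Gstp, Gstt and Gsto, and the carboxylesterases Ces1 and Ces2, which hydrolyse esters and so prepare molecules for conjugation. They were chosen by the start of their symbol and by more than 100 reads in total over the 9 libraries. Of 75 candidate genes, 47 passed this limit, among 15002 genes of all kinds that did. The measured genes were 4 of 9 for Ugt1, 6 of 10 for Ugt2, 7 of 21 for Sult, 4 of 4 for Gsta, 7 of 7 for Gstm, 3 of 3 for Gstp, 3 of 4 for Gstt, 1 of 2 for Gsto, 5 of 8 for Ces1 and 7 of 7 for Ces2. The other candidates stayed at or below the limit and 12 of them had no read at all. Just inside it were Ces1c with 186 reads and Sult4a1 with 199, and just outside were Ugt1a8 with 95 and Ces1b with 78.

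Duodenal RNA was sequenced from whole tissue of 10-week-old male C57Bl6 mice killed 6 h after an oral dose of calcitriol and ZK, of calcitriol alone, or of vehicle, with 3 libraries per treatment. Calcitriol is the active form of vitamin D, and ZK (ZK168281) is a synthetic analog that antagonizes its receptor, VDR. Each label also carries a number, 1, 2 or 3, which occurs once in every treatment and whose meaning is not stated. Libraries are named here by treatment and number, as in calcitriol 2. The libraries held 22561400 to 41207455 counts, and the 47 genes took 1.33% to 1.42% of each. Levels are CPM scaled by the trimmed mean of M-values (TMM CPM), which sets the count of a gene against the depth of its library.

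In the intestine these enzymes act mostly in the absorptive enterocytes of the villus, where they limit how much of a swallowed compound reaches the blood. UGTs transfer glucuronic acid from UDP-glucuronic acid, SULTs transfer sulfate from the donor PAPS, and GSTs join glutathione to reactive electrophiles. Their genes lie in clusters of close copies, and many are controlled by nuclear receptors that sense foreign chemicals, among them PXR and CAR, and by the stress factor NRF2.

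The treatment labels did not pass a check by Cyp24a1, the gene of the enzyme that inactivates calcitriol and a classical VDR target. Its level was 7633, 6425 and 7537 TMM CPM in calcitriol and ZK 2, calcitriol 2 and vehicle 2, 4.05, 9.13 and 2.47 in calcitriol and ZK 3, calcitriol 3 and vehicle 3, and 6.14, 2.50 and 2.70 in calcitriol and ZK 1, calcitriol 1 and vehicle 1. It was thus high in each library of number 2, vehicle included. Values are therefore compared by the number as well as by treatment, and a comparison between numbers describes sets of libraries. Whether treatment and number are exchanged in the titles cannot be told from the labels, so which treatment, if any, separates the numbers is not settled here. Number 3 was not uniform: over all genes, the counts of calcitriol 3 differed from those of calcitriol 1 by a mean chi-square of 1.99 per gene, against 113 and 120 from calcitriol and ZK 3 and vehicle 3, where 1 is the sampling noise. In number 2, calcitriol 2 differed from calcitriol and ZK 2 and vehicle 2 by 103 and 96.4, while these differed from each other by 3.69. Unlike calcitriol 3, calcitriol 2 was close to no library of another number (154 to 237). No pair of libraries agreed within sampling noise. Calcitriol 3 was nearer on the log2 scale to number 1 than to its number 3 partners for 43 of the 47 genes.

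The enterocyte genes Vil1 (1600.1 TMM CPM or more) and Fabp2 (3655 or more) were expressed in every library, while the hepatocyte marker Alb was at 0.77 or less. Of 6 measured hepatocyte markers, 3 were called higher in number 2 than in number 1, at a summed level of 18.3 to 22.5 TMM CPM in number 2 and 15.6 to 16.2 in number 1. Markers of other cell types moved with the numbers. Between number 2 and number 1, 20.4% of all genes were called, 12.2% higher and 8.25% lower. Of 8 markers of Brunner glands and stomach, 7 were called higher in number 2 than in number 1, and their summed level was 12167, 10079.7 and 12390.2 TMM CPM in calcitriol and ZK 2, calcitriol 2 and vehicle 2, against 2962 to 3477 in the other 6 libraries. The stomach gene Gkn1 was at 577 to 734 in number 2 and at most 0.43 elsewhere. The 14 markers of pancreatic acinar cells were all called higher in number 2 than in number 1. Together they reached 44009, 9615 and 45835 TMM CPM in calcitriol and ZK 2, calcitriol 2 and vehicle 2, 4082, 115 and 4163 in calcitriol and ZK 3, calcitriol 3 and vehicle 3, and 106 to 122 in number 1. Of 14 enterocyte markers, 6 were lower and 1 was higher in number 2 than in number 1, and they summed to 43859 to 48735 in number 2, to 37314, 51671 and 37798 in calcitriol and ZK 3, calcitriol 3 and vehicle 3, and to 51237 to 51646 in number 1. Of 7 measured markers of the lower villus, 2 were higher and 2 lower, with sums of 9199 to 10384 TMM CPM in number 2, 2976, 5105 and 3037 in calcitriol and ZK 3, calcitriol 3 and vehicle 3, and 5078 to 5314 in number 1. Markers of the villus tip (5 of 8 higher) and of fibroblasts (6 of 7 higher) also moved. Of 5 erythroid markers, 3 were lower, with sums of 44.4 to 47.8 TMM CPM in number 2 and 139 to 146 in number 1. Immune markers (2 of 8 higher, 2 lower) summed to 2976 to 3427 TMM CPM in number 2 and 5012 to 5143 in number 1. In the other lists, of endothelial, goblet, Paneth, crypt, smooth muscle, tuft and enteroendocrine cells, 0 to 2 genes were called. The part of these tissue differences in the results below was not tested, and in whole tissue fewer cells of a type and less RNA per cell cannot be told apart.

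Between number 2 and number 1, 25 of the 47 genes passed the test (edgeR quasi-likelihood, Benjamini-Hochberg adjusted p under 0.05 over all genes and an absolute log2 fold change over 0.58), 7 of them higher and 18 lower in number 2. Over all 15002 genes the percentage called was 20.4%, with 12.2% higher and 8.25% lower. The median log2 fold change was -0.43 for the 47 genes, beside 0.03 for all genes. Gene by gene, the 3 libraries of number 2 did not overlap the 3 of number 1 for 41 of the 47, beside 61.8% of all genes. Glucuronosyltransferases and the Ces1 carboxylesterases were mostly lower, and the most abundant mu-class glutathione transferases were higher. The sum over the 47 genes was 13115, 12931 and 13075 TMM CPM in calcitriol and ZK 2, calcitriol 2 and vehicle 2 and 14867, 14532 and 14881 in calcitriol and ZK 1, calcitriol 1 and vehicle 1. As a share of all counts, the 47 genes took 1.35%, 1.37% and 1.35% in the same libraries of number 2. In those of number 1 they took 1.34%, 1.33% and 1.35%, so the lower sum of number 2 appeared with TMM scaling only. Between number 2 and number 3, 17 genes were called, 4 higher and 13 lower, beside 11.3% of all genes (6.81% higher, 4.53% lower), and 24 did not overlap between these sets, beside 36.8% of all genes. The same number 2 libraries enter both comparisons, so these are not independent of each other. Scaling by library totals alone moved the median log2 fold change of all genes between number 2 and number 1 to 0.22 and the calls over all genes to 2651 higher and 630 lower, against 1830 and 1237 with TMM, and left 7 of the 47 genes higher and 14 lower.

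**Figure D1:**
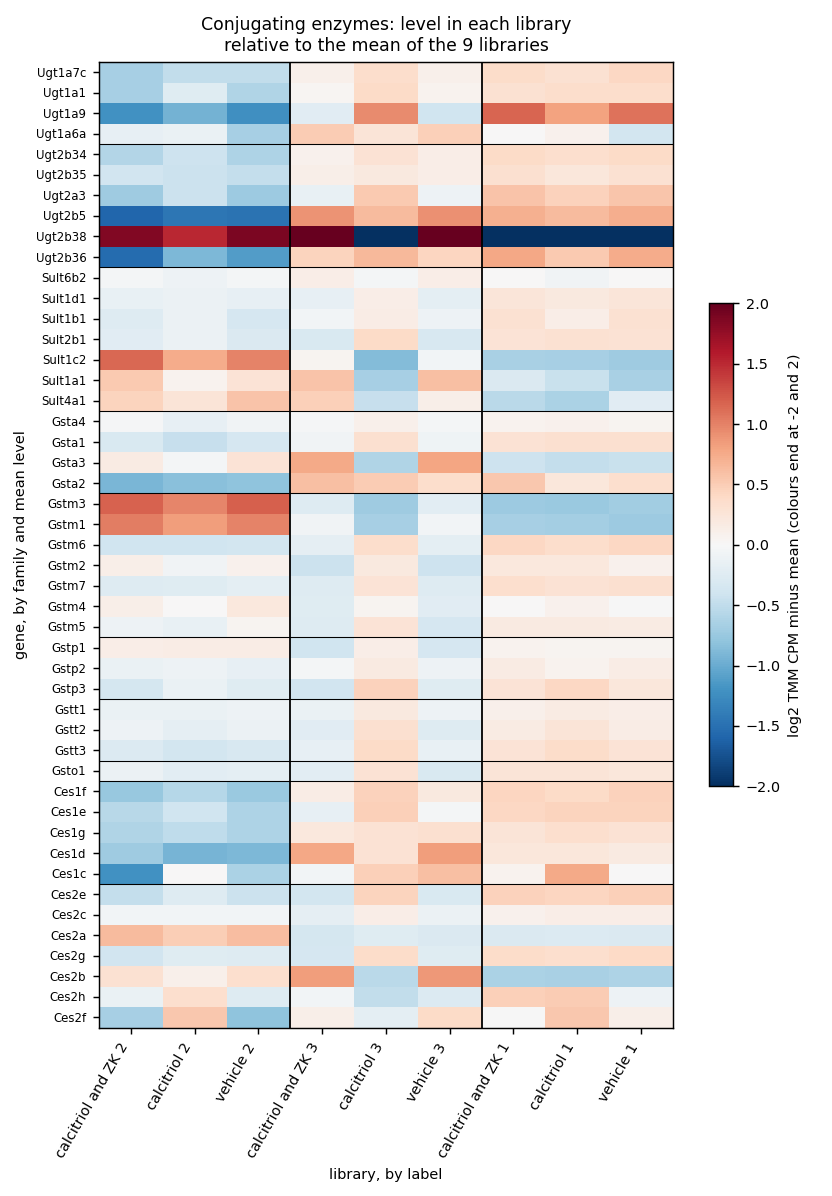
Level of each of the 47 genes in each library, as the log2 TMM CPM minus the mean of that gene over the 9 libraries. Rows are genes grouped by family and ordered by mean level, columns are libraries by label, red is above and blue below the mean, and the column of calcitriol 3 resembles the columns of number 1 for most genes.

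Levels were also divided by exon length, giving TMM CPM per kb of exon. The highest over the 9 libraries were Gstm3 (784 TMM CPM per kb), Sult6b2 (681), Ces2e (673), Gsto1 (576) and Gsta4 (534). The order differed between the numbers. Gstm3 averaged 1441 TMM CPM per kb in number 2 and 402 in number 1, while Ces2e averaged 495 in number 2 and 889 in number 1. Only uniquely aligned reads were counted, but the exon length includes short windows of sequence that also occur in another gene. Such windows made up 90.5% of Gsta1, 36.1% of Ces2c, 28.8% of Gstm3 and 3.3% of Ces2e. They made up 0.0% of Sult6b2, Gsto1 and Gsta4. Levels per kb were not corrected for this, so the order of abundance between genes is uncertain.

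Ugt2 was the family in which every measured gene was called between number 2 and number 1, 5 lower and 1 higher. These enzymes, encoded in a cluster on chromosome 5, glucuronidate steroids, bile acids and many drugs. Ugt2b5 (chr5:87124960-87140318, minus strand of GRCm38) was lower by the largest ratio: it had 17.3, 19.2 and 18.7 TMM CPM in calcitriol and ZK 2, calcitriol 2 and vehicle 2, 96.8, 81.0 and 97.6 in calcitriol and ZK 3, calcitriol 3 and vehicle 3, and 84.8, 80.5 and 86.2 in calcitriol and ZK 1, calcitriol 1 and vehicle 1. Each library of number 2 lay far below each of the other 6. Its log2 fold change was -2.19 ± 0.09 (SE) against number 1 (adjusted p = 3.28e-07), and against number 3 it was -2.32 ± 0.09 (adjusted p = 2.14e-07).

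Ugt2b38 (chr5:87409942-87424203, minus strand) went the other way. Its level was 55.1, 43.1 and 55.8 TMM CPM in calcitriol and ZK 2, calcitriol 2 and vehicle 2, 61.8, 2.73 and 62.1 in calcitriol and ZK 3, calcitriol 3 and vehicle 3, and 2.55, 3.67 and 3.30 in calcitriol and ZK 1, calcitriol 1 and vehicle 1. It was therefore high in 5 libraries, of which calcitriol and ZK 3 and vehicle 3 were the highest, and low in the other 4. Number 2 was above number 1 (log2 fold change 4.01 ± 0.84 (SE), adjusted p = 0.00511), and the difference from number 3 had a log2 fold change of 0.27 with a 95% interval of -1.28 to 1.81. In calcitriol and ZK 3 and vehicle 3 the Ugt2b5 level was also at its highest, so the inverse order of the pair held between number 2 and number 1 and not within number 3.

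The pair is of interest because the genes are near copies. Their coding sequences are 97.0% identical, with 47 of 1590 bases different, and 41.7% of the 50-base windows of Ugt2b5 transcripts and 37.4% of those of Ugt2b38 also occur in another gene. Such reads cannot be placed uniquely, and only uniquely aligned reads were counted, so both levels rest on the remaining positions and absolute levels of the pair are uncertain. Coding bases 1467 to 1526 are shown because this is the 60-base stretch where Ugt2b38 differs most from Ugt2b5, with capitals at each base that differs from Ugt2b5 (9 in Ugt2b38, sequences of the GENCODE M21 transcripts).
Ugt2b5: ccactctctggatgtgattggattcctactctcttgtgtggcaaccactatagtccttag
Ugt2b38: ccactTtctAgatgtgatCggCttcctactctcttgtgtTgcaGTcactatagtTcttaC

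The regions before the transcription starts of this pair, both on the minus strand of chromosome 5, are shown because the genes move apart although these stretches are also alike, at 83.2% identity. Capitals mark bases that differ or have no partner in the alignment, 42 in each. The sequences are the 250 bases before the RefSeq start in the build GRCm38.p6, chr5:87140341-87140590 for Ugt2b5 and chr5:87424204-87424453 for Ugt2b38.
Ugt2b5: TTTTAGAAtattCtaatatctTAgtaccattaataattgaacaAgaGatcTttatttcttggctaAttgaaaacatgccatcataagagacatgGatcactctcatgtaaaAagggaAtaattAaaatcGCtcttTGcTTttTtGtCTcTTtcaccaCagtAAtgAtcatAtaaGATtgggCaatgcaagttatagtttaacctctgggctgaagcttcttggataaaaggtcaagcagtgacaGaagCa
Ugt2b38: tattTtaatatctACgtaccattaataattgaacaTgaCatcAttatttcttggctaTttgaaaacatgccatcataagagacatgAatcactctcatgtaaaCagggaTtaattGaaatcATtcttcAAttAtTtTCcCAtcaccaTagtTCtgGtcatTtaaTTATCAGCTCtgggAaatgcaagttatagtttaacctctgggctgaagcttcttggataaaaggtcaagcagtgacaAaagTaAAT

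Ugt2b36, whose transcripts share few windows with other genes (0.3%), was low in number 2 as Ugt2b5 was. It had 4.10, 6.36 and 5.49 TMM CPM in calcitriol and ZK 2, calcitriol 2 and vehicle 2, 16.1, 18.6 and 16.1 in calcitriol and ZK 3, calcitriol 3 and vehicle 3, and 17.1 to 20.2 in number 1 (log2 fold change -1.84 ± 0.15 (SE), adjusted p = 2.47e-05). Ugt2b34, the most abundant Ugt2 gene, had 912, 1027 and 893 TMM CPM in calcitriol and ZK 2, calcitriol 2 and vehicle 2, 1456, 1669.7 and 1498 in calcitriol and ZK 3, calcitriol 3 and vehicle 3, and 1722 to 1790.1 in number 1 (log2 fold change -0.90 ± 0.11 (SE), adjusted p = 3.27e-04). Neither gene overlapped between number 2 and the other libraries. Ugt2b35 (121 to 129 TMM CPM in number 2 and 197 to 209 in number 1, log2 fold change -0.71, adjusted p = 6.92e-05) and Ugt2a3 (92.7 to 114 in number 2 and 211 to 228 in number 1, log2 fold change -1.15, adjusted p = 8.08e-04) were lower too. Against number 3, Ugt2a3 lost its call without vehicle 2, calcitriol and ZK 2 or calcitriol 3 (log2 fold change -0.69, -0.70 and -0.50). The UGT2A3 enzyme of humans glucuronidates bile acids. For the Ugt2 family as a whole, summed levels were 1210.3, 1334 and 1187 TMM CPM in calcitriol and ZK 2, calcitriol 2 and vehicle 2, 1952, 2186 and 2001 in calcitriol and ZK 3, calcitriol 3 and vehicle 3, and 2232 to 2335 in number 1.

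**Figure D2:**
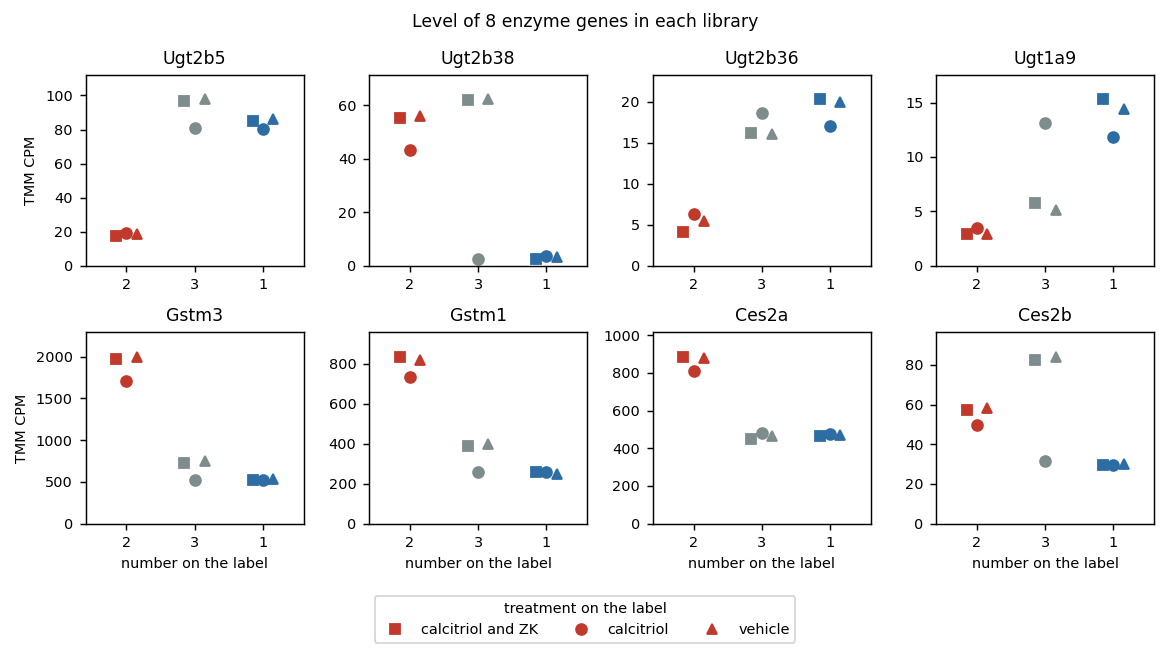
Level in TMM CPM of 8 enzyme genes in each library, by the number on the label (red 2, grey 3, blue 1), with squares for calcitriol and ZK, circles for calcitriol and triangles for vehicle. Ugt2b5, Ugt2b36 and Ugt1a9 are lowest and Gstm3, Gstm1 and Ces2a highest in number 2, whereas Ugt2b38 and Ces2b are high in number 2 and in 2 libraries of number 3, the exception being calcitriol 3.

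The Ugt1 genes are 1 locus on chromosome 1 in which each gene has its own start and first exon and all share the last exons. Ugt1a1 conjugates bilirubin, and the others conjugate phenols and other small molecules. Of 4 measured genes, 3 were lower in number 2 than in number 1 and none was higher. Ugt1a7c, the most abundant, had 219.7, 246 and 247 TMM CPM in calcitriol and ZK 2, calcitriol 2 and vehicle 2, 373, 441 and 373 in calcitriol and ZK 3, calcitriol 3 and vehicle 3, and 446, 428 and 463 in calcitriol and ZK 1, calcitriol 1 and vehicle 1. Between number 2 and number 1 this was a log2 fold change -0.91 ± 0.10 (SE), adjusted p = 1.55e-04. Ugt1a1 had 71.7, 95.8 and 74.6 TMM CPM in calcitriol and ZK 2, calcitriol 2 and vehicle 2, 116, 147 and 119 in calcitriol and ZK 3, calcitriol 3 and vehicle 3, and 140.0 to 145 in number 1 (log2 fold change -0.83 ± 0.13 (SE), adjusted p = 9.36e-04). In both genes number 2 lay below every other library, with calcitriol 2 above vehicle 2 for Ugt1a1 and close to it for Ugt1a7c.

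Ugt1a9 was the lowest expressed of the 3 and changed most. It had 2.95, 3.51 and 2.89 TMM CPM in calcitriol and ZK 2, calcitriol 2 and vehicle 2, 5.81, 13.1 and 5.14 in calcitriol and ZK 3, calcitriol 3 and vehicle 3, and 15.3, 11.9 and 14.4 in calcitriol and ZK 1, calcitriol 1 and vehicle 1. It was lower in number 2 (log2 fold change -2.15 ± 0.32 (SE), adjusted p = 8.11e-04). Calcitriol 3 was within the range of number 1, and the other libraries of number 3 lay between. Ugt1a6a, at 1.25 to 1.82 TMM CPM in number 2, was called against number 3 (2.39 to 2.84, log2 fold change -0.72, adjusted p = 0.0189) and not against number 1 (1.54 to 2.11, log2 fold change -0.22, adjusted p = 0.398). The call of Ugt1a6a was lost without vehicle 2, vehicle 3 or calcitriol and ZK 3 (adjusted p = 0.0698, 0.0563 and 0.0662). Against number 3, Ugt1a9 lost its call without vehicle 2 or calcitriol and ZK 2 (adjusted p = 0.0576 and 0.0609), and Ugt1a1 came within the minimum fold without calcitriol and ZK 2 or calcitriol 3 (log2 fold change -0.578 and -0.54). Since 50.3% to 59.9% of the exon bases of these genes belong to several Ugt1a genes, a read there cannot be given to 1 of them, and 41.5% of those of Ugt1a1 overlap an antisense gene. The treatment of such reads by the counting is not stated, so the division among Ugt1a genes is uncertain.

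Each Ugt1a start has its own upstream region, and 2 of them are shown because these genes were lower together in number 2 and share a short match. The letters GTTAAT, a half-site bound by the liver and gut factor HNF1, were searched on both strands in the 250 bases before the RefSeq start of 41 of the 47 genes (49 starts). They were found in 14.3% of these and in 6.4% of all 32851 promoters of the same length. Counted back from the start, the match begins at position -41 in Ugt1a1 and at -91 in Ugt1a9, as ATTAAC on the strand shown, in capitals. The windows are chr1:88211709-88211958 for Ugt1a1 and chr1:88070529-88070778 for Ugt1a9, both on the plus strand of GRCm38.p6.
Ugt1a1: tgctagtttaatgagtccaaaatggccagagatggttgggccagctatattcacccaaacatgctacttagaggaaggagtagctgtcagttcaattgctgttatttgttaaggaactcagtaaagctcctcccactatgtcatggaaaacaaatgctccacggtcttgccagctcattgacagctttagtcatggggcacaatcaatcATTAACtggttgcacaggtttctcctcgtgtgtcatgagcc
Ugt1a9: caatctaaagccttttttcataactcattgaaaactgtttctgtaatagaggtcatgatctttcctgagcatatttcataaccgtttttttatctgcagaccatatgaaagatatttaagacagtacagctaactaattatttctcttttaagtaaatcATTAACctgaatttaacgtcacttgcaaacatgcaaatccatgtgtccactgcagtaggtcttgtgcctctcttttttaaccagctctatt
The other letters searched on both strands were GTTAATNATTAAC (the full HNF1 site, which holds GTTAAT), CAAAGTCCA (HNF4), TTTATG (CDX), TGACNNNGC (antioxidant response element), and repeats of AGNTCA spaced by 3 or 4 bases, which nuclear receptors with RXR can bind. No start of the 47 genes had the full HNF1 letters (0.009% of all promoters), the HNF4 letters (0.384%) or a repeat with 3 or 4 bases between (0.052% and 0.103%). TGACNNNGC occurred in 6.1% of the 49 starts, against 10.2% of all promoters, and TTTATG in 14.3%, against 10.8%. Of the 7 starts with GTTAAT, 3 were of genes called lower in number 2 than in number 1 (Ugt1a1, Ugt1a9 and Ugt2a3). The other 4 were of genes not called (Gsta3, Sult1a1, Sult1d1 and Ugt1a6a, the last of the same locus). Ugt1a7c, also of this locus and called lower, was not among the genes with a match. For TTTATG, 4 starts were of genes called lower and 3 of genes not called. Among all 49 starts, 19 were of genes called lower, 6 of genes called higher and 24 of genes not called. A match is a description of the letters and not evidence of binding.

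Of 7 measured sulfotransferases, 2 were higher and none lower in number 2 than in number 1, and the abundant ones kept within the minimum fold. Sult6b2, the most abundant, had 1422, 1373 and 1427 TMM CPM in calcitriol and ZK 2, calcitriol 2 and vehicle 2, 1609, 1426 and 1611 in calcitriol and ZK 3, calcitriol 3 and vehicle 3, and 1479.8, 1406 and 1485 in calcitriol and ZK 1, calcitriol 1 and vehicle 1. Its log2 fold change between number 2 and number 1 was -0.05, with a 95% interval of -0.29 to 0.19. Sult1d1, which sulfates catecholamines in the mouse, and Sult1b1, which sulfates thyroid hormones, had log2 fold changes of -0.37 (adjusted p = 0.024) and -0.49 (adjusted p = 0.00702). Sult1d1 had 593 to 617 TMM CPM in number 2 and 762 to 791 in number 1, and Sult1b1 had 469 to 544 in number 2 and 653 to 732 in number 1. Sult1c2, at lower level, differed more, with 34.0, 25.8 and 30.7 TMM CPM in calcitriol and ZK 2, calcitriol 2 and vehicle 2, 16.0, 8.44 and 14.9 in calcitriol and ZK 3, calcitriol 3 and vehicle 3, and 9.38 to 9.77 in number 1. It was higher in number 2 than in number 1 (log2 fold change 1.65 ± 0.20 (SE), adjusted p = 2.92e-04) and than in number 3 (1.18 ± 0.20, adjusted p = 0.00208). Sult4a1, a brain sulfotransferase close to the read limit, was also called, at 0.723 to 0.898 TMM CPM in number 2 and 0.389 to 0.514 in number 1 (adjusted p = 0.0316). This call was lost in 5 of the 6 fits that left out 1 library of number 2 or number 1, with adjusted p of 0.0531 to 0.108, the exception being calcitriol 2. With all libraries it was also lost in DESeq2 (0.0585) and when every gene with a read was tested (0.0612). Sult1a1 was not called in the main fit, but it was called higher in DESeq2 (log2 fold change 0.74, adjusted p = 0.0323). In edgeR it was called with every gene with a read (0.76, adjusted p = 0.0249) and in only the 6 libraries compared (0.75, 0.00174). The same held with treatment as a term (0.73, 0.0495) and without calcitriol 3 (0.75, 7.58e-04).

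The mu-class glutathione transferases (Gstm), a cluster on chromosome 3, gave the largest gain in summed level of the 10 families. Gstm3 (chr3:107963696-107969283, minus strand) had 1969, 1703 and 1994 TMM CPM in calcitriol and ZK 2, calcitriol 2 and vehicle 2, 726, 528 and 748 in calcitriol and ZK 3, calcitriol 3 and vehicle 3, and 527, 517 and 535 in calcitriol and ZK 1, calcitriol 1 and vehicle 1. It was higher in number 2 than in number 1 (log2 fold change 1.84 ± 0.15 (SE), adjusted p = 2.12e-05) and than in number 3 (1.50 ± 0.15, adjusted p = 8.73e-05). Gstm1 (chr3:108012255-108017973, minus strand) followed it, with 832, 733 and 818 TMM CPM in calcitriol and ZK 2, calcitriol 2 and vehicle 2, 388, 258 and 396 in calcitriol and ZK 3, calcitriol 3 and vehicle 3, and 258, 256 and 248 in calcitriol and ZK 1, calcitriol 1 and vehicle 1 (log2 fold change 1.65 ± 0.16 (SE), adjusted p = 6.29e-05). For both genes calcitriol 2 was the lowest of number 2 and calcitriol 3 the lowest of number 3. The pancreatic acinar sum had the same lowest libraries, at 9615 TMM CPM in calcitriol 2 and 115 in calcitriol 3, and its part in the levels of both genes was not tested.

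The rise was not shared by the cluster. Gstm6 had 75.5, 75.2 and 76.7 TMM CPM in calcitriol and ZK 2, calcitriol 2 and vehicle 2 and 133, 127 and 132 in calcitriol and ZK 1, calcitriol 1 and vehicle 1, so it was lower in number 2. For number 2 against number 1 the test gave a log2 fold change -0.78 ± 0.13 (SE), adjusted p = 0.0016. Gstm2, whose gene lies between those of Gstm3 and Gstm1, had 63.2, 55.2 and 61.9 TMM CPM in calcitriol and ZK 2, calcitriol 2 and vehicle 2 and 61.6 to 67.3 in number 1 (log2 fold change -0.12, 95% interval -0.46 to 0.22). It did not pass the test, nor did Gstm4, Gstm5 and Gstm7, with log2 fold changes from -0.55 to 0.08. Windows shared with other genes made up 28.8% of Gstm3 and 18.9% of Gstm1, partly with each other. The family sum was 3057, 2680.4 and 3076 TMM CPM in calcitriol and ZK 2, calcitriol 2 and vehicle 2, 1349, 1122 and 1377 in calcitriol and ZK 3, calcitriol 3 and vehicle 3, and 1109 to 1127 in number 1.

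The alpha class (Gsta) handles products of lipid peroxidation and steroids. Gsta4, which detoxifies 4-hydroxyalkenals and was the most abundant, differed little, with 599 to 667 TMM CPM in number 2, 659.9 to 722 in number 3 and 704 to 713 in number 1 (log2 fold change of number 2 to number 1 -0.16, 95% interval -0.37 to 0.05). Gsta1 had 184, 165 and 179.7 TMM CPM in calcitriol and ZK 2, calcitriol 2 and vehicle 2 and 279 to 284 in number 1 (log2 fold change -0.68 ± 0.11 (SE), adjusted p = 0.00168). Gsta2, at lower level, had 2.15, 2.27 and 2.31 TMM CPM in calcitriol and ZK 2, calcitriol 2 and vehicle 2, 5.14 to 6.12 in number 3 and 4.70 to 5.85 in number 1 (log2 fold change -1.22 ± 0.13 (SE), adjusted p = 1.24e-04), and was lower than in number 3 as well (-1.34, adjusted p = 7.29e-05). Both were thus lowest in number 2. Gsta1 and Gsta2 are 97.6% identical over their coding sequence, and 90.5% of the windows of Gsta1 and 49.8% of those of Gsta2 occur elsewhere, so their separate levels are uncertain. Gsta3, which conjugates aflatoxin epoxide in the mouse, had 12.4, 10.8 and 13.4 TMM CPM in calcitriol and ZK 2, calcitriol 2 and vehicle 2, 18.8, 7.27 and 19.1 in calcitriol and ZK 3, calcitriol 3 and vehicle 3, and 7.95 to 8.35 in number 1. Its level was highest in calcitriol and ZK 3 and vehicle 3 and did not pass the test between number 2 and number 1 (log2 fold change 0.58, adjusted p = 0.139). It was called higher at the same fold in the fit of only the 6 libraries compared (adjusted p = 4.01e-04) and in the fit without calcitriol 3 (1.41e-04).

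The pi, theta and omega classes moved less. Gstp1, the main pi-class gene, had 155, 155 and 156 TMM CPM in calcitriol and ZK 2, calcitriol 2 and vehicle 2, 106, 154 and 112 in calcitriol and ZK 3, calcitriol 3 and vehicle 3, and 145 to 148 in number 1. Its log2 fold change between number 2 and number 1 was 0.09 (95% interval -0.19 to 0.36), and calcitriol and ZK 3 and vehicle 3 were the low libraries. The size of that gap depended on the scaling. The Gstp sum in calcitriol and ZK 3 and vehicle 3 was 142 and 147 TMM CPM, against 189 to 192 in number 1. By library totals alone it was 162 and 168 CPM, against 171 to 174. Gstp2 (-0.26, adjusted p = 0.03) and Gstp3 (-0.55, adjusted p = 0.0474) did not reach the minimum fold, and Gstp1 and Gstp2 are 98.1% identical, so the division between them is uncertain. Of the theta class, Gstt3 was lower, at 39.3 to 42.3 TMM CPM in number 2 and 61.2 to 65.4 in number 1 (log2 fold change -0.62 ± 0.13 (SE), adjusted p = 0.00549). Gstt1 and Gstt2 had log2 fold changes of -0.25 and -0.32 and were not called. Gsto1, which reduces dehydroascorbate and is among the most abundant of the 47, had 1058, 990.0 and 1009 TMM CPM in calcitriol and ZK 2, calcitriol 2 and vehicle 2, 991, 1399.8 and 933 in calcitriol and ZK 3, calcitriol 3 and vehicle 3, and 1348 to 1379 in number 1. The 4 high libraries were those of number 1 and calcitriol 3, and the test between number 2 and number 1 gave a log2 fold change of -0.43 (adjusted p = 0.0504).

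Of the 5 measured Ces1 genes, a cluster on chromosome 8 of esterases and lipases, 4 were lower in number 2 than in both number 1 and number 3. Ces1f, the most abundant, had 176, 202 and 178 TMM CPM in calcitriol and ZK 2, calcitriol 2 and vehicle 2, 329, 410.3 and 341 in calcitriol and ZK 3, calcitriol 3 and vehicle 3, and 404, 391 and 409 in calcitriol and ZK 1, calcitriol 1 and vehicle 1. Each library of number 2 lay below the other 6 (log2 fold change -1.11 ± 0.11 (SE), adjusted p = 6.62e-05). Ces1d, a triacylglycerol hydrolase, had 13.7, 11.8 and 12.0 TMM CPM in calcitriol and ZK 2, calcitriol 2 and vehicle 2, 38.4, 27.4 and 39.9 in calcitriol and ZK 3, calcitriol 3 and vehicle 3, and 25.4 to 26.2 in number 1. The difference between number 2 and number 1 passed the test (log2 fold change -1.05 ± 0.13 (SE), adjusted p = 3.38e-04). No library of number 2 overlapped any other library for these genes, and for Ces1d calcitriol and ZK 3 and vehicle 3 were the highest. Ces1e (-0.95 ± 0.15, adjusted p = 9.52e-04) and Ces1g, a lipid hydrolase (-0.87 ± 0.07, adjusted p = 1.49e-05), were lower by similar amounts against number 1. Against number 3 the call of Ces1e was lost without vehicle 2 (adjusted p = 0.0546) and without calcitriol 3 (log2 fold change -0.42). Ces1c, the plasma esterase of the mouse, was near the read limit at 0.259 to 0.598 TMM CPM in number 2 and 0.6 to 1.01 in number 1 and was not called (adjusted p = 0.0913).

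The Ces2 genes, on chromosome 8 as well, include the main carboxylesterases of the intestine, and they split. Ces2e, the most abundant, had 1258, 1454 and 1297 TMM CPM in calcitriol and ZK 2, calcitriol 2 and vehicle 2, 1352, 2386 and 1416 in calcitriol and ZK 3, calcitriol 3 and vehicle 3, and 2413, 2361 and 2422 in calcitriol and ZK 1, calcitriol 1 and vehicle 1. It was lower in number 2 than in number 1 (log2 fold change -0.84 ± 0.21 (SE), adjusted p = 0.0102), and calcitriol and ZK 3 and vehicle 3 were as low as number 2. Ces2a (chr8:104734003-104741634, plus strand), in contrast, was high in number 2 alone, with 884, 809 and 880.1 TMM CPM in calcitriol and ZK 2, calcitriol 2 and vehicle 2, 449, 482 and 468 in calcitriol and ZK 3, calcitriol 3 and vehicle 3, and 467, 474 and 470.0 in calcitriol and ZK 1, calcitriol 1 and vehicle 1. Its log2 fold change was 0.87 ± 0.09 against number 1 (adjusted p = 1.03e-04) and 0.88 ± 0.09 against number 3 (adjusted p = 1.09e-04). Ces2c, the second in level, stayed at 884 to 889 TMM CPM in number 2 and 983 to 1011 in number 1 (log2 fold change -0.18, 95% interval -0.42 to 0.07). Ces2g was lower (log2 fold change -0.66 ± 0.16 (SE), adjusted p = 0.0113), a call lost without calcitriol and ZK 2 (adjusted p = 0.0502) and with library totals alone (log2 fold change -0.46).

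Ces2b resembled Ugt2b38 rather than Ces2a. It had 57.2, 49.9 and 58.1 TMM CPM in calcitriol and ZK 2, calcitriol 2 and vehicle 2, 82.4, 31.8 and 83.9 in calcitriol and ZK 3, calcitriol 3 and vehicle 3, and 29.7, 29.7 and 30.2 in calcitriol and ZK 1, calcitriol 1 and vehicle 1. Although number 2 and number 1 did not overlap, the adjusted p (0.0357, log2 fold change 0.88 ± 0.29) became 0.0594 to 0.0983 when any 1 of these 6 libraries was left out. It remained called without any single library of number 3. As for Ugt2b38, calcitriol 3 lay at the level of number 1, apart from its number 3 partners.

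**Figure D3:**
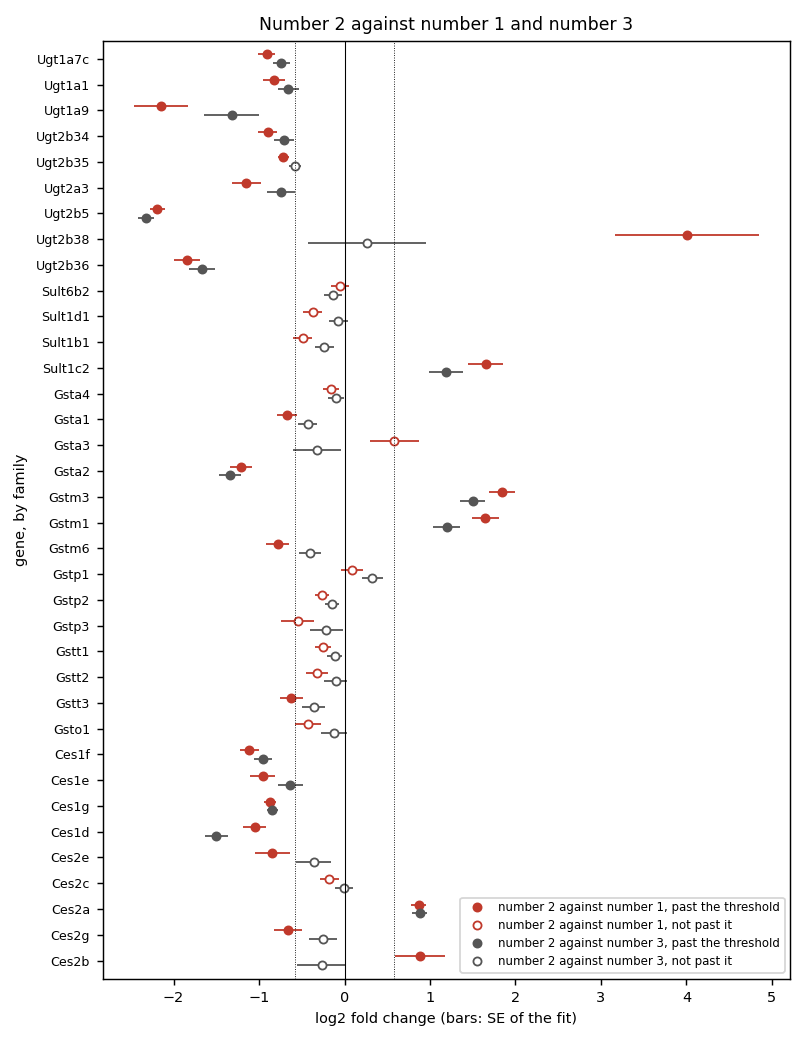
Log2 fold change of the 36 genes described by name under the rule for named genes, number 2 against number 1 (red) and number 2 against number 3 (grey), with the standard error of the edgeR fit. Filled points passed the test, dotted lines stand at -0.58 and 0.58, and the Ugt1, Ugt2 and Ces1 genes lie to the left except Ugt2b38, while Gstm3, Gstm1, Sult1c2 and Ces2a lie to the right in both comparisons.

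**Figure D4:**
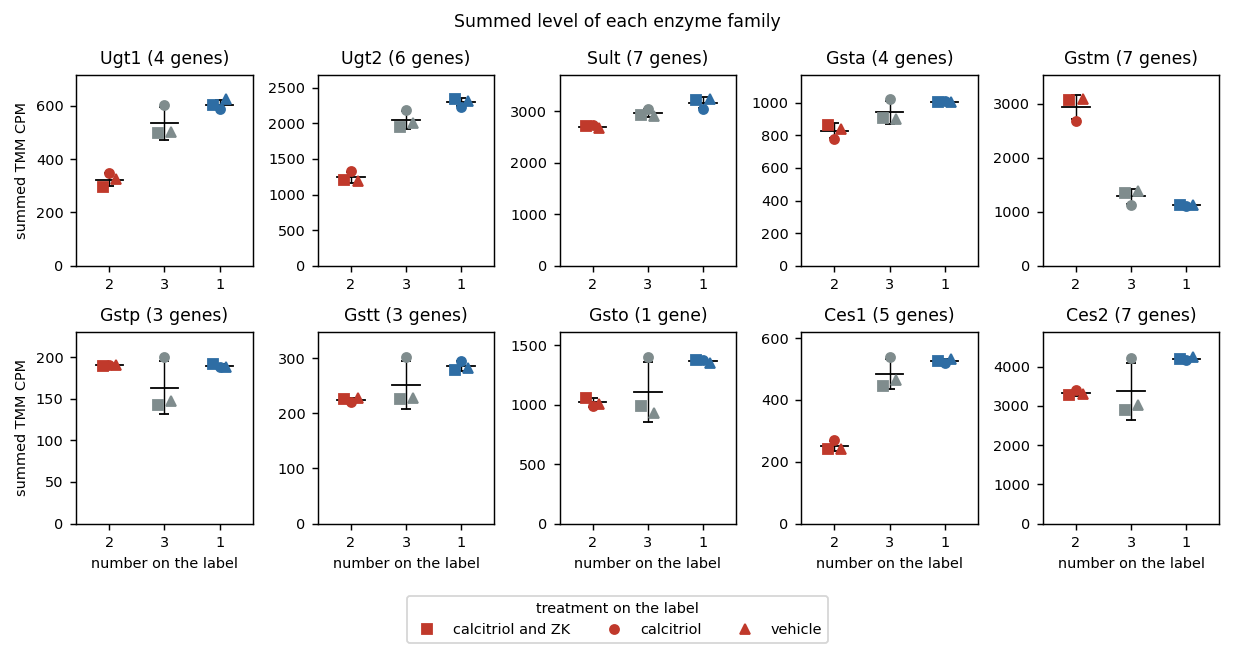
Summed TMM CPM of each family in each library (red number 2, grey number 3, blue number 1), with the mean and SD of the 3 libraries of each number. Ugt1, Ugt2 and Ces1 sums are lowest and Gstm sums highest in number 2, and calcitriol 3 lies close to the libraries of number 1 in each panel.

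Number 3 against number 1 gave no call among the 47 genes and none among all 15002 genes (0%) in edgeR, with 20 of the 47 and 3940 of all genes at an unadjusted p under 0.05. limma voom also called no gene, and DESeq2 called 398 genes, of which Ces2b (adjusted p = 0.00805) and Ugt2b38 (adjusted p = 0.00706) belong to the 47. The number 3 and number 1 libraries did not overlap for 8 of the 47, beside 18.4% of all genes. With all genes that had a read included, edgeR called Ces2b, Ugt2b38 and Gsta3. The outcome rested on calcitriol 3: without it, 15 of the 47 genes were called, 8 higher and 7 lower in number 3, and 2873 of all genes. The number 3 libraries left in this fit were calcitriol and ZK 3 and vehicle 3, which are close to each other (4.94 on the chi-square scale above), so its small p-values measure a narrow spread. The higher genes were Ugt2b38 (log2 fold change 4.27), Ces2b (1.48), Gsta3 (1.22), Sult1a1 (1.04), Sult4a1 (0.77), Sult1c2 (0.68), Gstm1 (0.63) and Ces1d (0.60). The lower genes were Ugt1a9 (-1.33), Ces2e (-0.79), Ces2g (-0.66), Ugt2a3 (-0.65), Gstp3 (-0.62), Sult2b1 (-0.61) and Gstm2 (-0.59).

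By the treatment on the label, in the fit without pairing, none of the 47 genes was called in any of the 3 comparisons, and none of all 15002 genes was (0% in each). This differs from the study, which used the same limits on reads, adjusted p and fold change. It reported many genes changed by calcitriol against vehicle, nearly all of them normalized by ZK. The reason for the difference was not tested. The median absolute log2 fold change of the 47 genes was 0.03 for calcitriol and ZK against vehicle, 0.17 for calcitriol against vehicle and 0.16 for calcitriol and ZK against calcitriol, beside 0.06, 0.14 and 0.13 for all genes in the same comparisons. None of the 47 had an unadjusted p under 0.05, while 24 of all genes did for calcitriol and ZK against vehicle, 135 for calcitriol against vehicle and 147 for calcitriol and ZK against calcitriol. DESeq2 and limma voom made no call either. When the number entered the fit of all 9 libraries as a block, again no gene was called, and 0 of the 47 for calcitriol and ZK against vehicle, 1 for calcitriol against vehicle and 6 for calcitriol and ZK against calcitriol had an unadjusted p under 0.05. For calcitriol and ZK against vehicle, where same-numbered libraries deviated together, a block in only those 6 libraries called 2 of all genes, Scand1 (log2 fold change 0.88) and H2afj (0.64), and none of the 47. That fit was added, and both genes are named, after the values were seen. In that fit, 5 of the 47 and 1517 of all genes had an unadjusted p under 0.05. Values within a treatment were widely spread. Gstm3 averaged 1074 ± 782 TMM CPM under calcitriol and ZK, 916 ± 682 under calcitriol and 1092 ± 788 under vehicle (SD, n = 3 each). Its log2 fold change between calcitriol and vehicle was -0.25, with a 95% interval of -1.86 to 1.36. For Ugt2b5 that difference was -0.17 (-1.98 to 1.65), and for Ugt2b38 it was -1.28 (-4.47 to 1.90). The 3 libraries of calcitriol fell outside the range of those of vehicle for 1 of the 47 genes, Sult6b2, beside 3.96% of all genes. Its levels were 1406, 1373 and 1426 TMM CPM in calcitriol 1, calcitriol 2 and calcitriol 3, against 1485, 1427 and 1611 in vehicle 1, vehicle 2 and vehicle 3. No gene of the 47 had such a gap for calcitriol and ZK against vehicle (1.79% of all genes) or against calcitriol (4.39%).

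Genes that supply these enzymes were read from lists that do not hold the 47. Over all genes, 20.4% were called between number 2 and number 1, 12.2% higher and 8.25% lower. Counts near these shares do not set a list apart. For glucuronidation, 1 of 9 genes of the supply of UDP-glucuronic acid was higher in number 2 than in number 1 and 1 was lower. The sugar kinase gene Hk2 had 8.37 to 9.47 TMM CPM in number 2 and 4.93 to 6.89 in number 1 (log2 fold change 0.62, adjusted p = 0.0227). Pgm1, of the phosphoglucomutase family, had 58.3 to 68.9 in number 2 and 106 to 109 in number 1 (-0.79, adjusted p = 0.0014). Ugdh, whose enzyme makes UDP-glucuronic acid, had a log2 fold change of -0.21 and was not called. For sulfation, 3 of 9 measured genes were lower and none higher. Papss2, which makes the sulfate donor, had 3171, 3882 and 3181 TMM CPM in calcitriol and ZK 2, calcitriol 2 and vehicle 2, 5101, 5998 and 5266 in calcitriol and ZK 3, calcitriol 3 and vehicle 3, and 6037 to 6318 in number 1. It was lower in number 2 than in number 1 (log2 fold change -0.87 ± 0.14 (SE), adjusted p = 0.00156). The anion exchanger Slc26a3 was lower as well (-1.19 ± 0.10, adjusted p = 2.62e-05).

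For glutathione, 5 of 20 genes of its synthesis and recycling were lower in number 2 and 1 was higher, beside 8.25% lower and 12.2% higher over all genes. Gclc, the catalytic subunit of the rate-limiting enzyme of glutathione synthesis, had 44.5, 38.4 and 47.6 TMM CPM in calcitriol and ZK 2, calcitriol 2 and vehicle 2, 162, 104 and 161 in calcitriol and ZK 3, calcitriol 3 and vehicle 3, and 104 to 107 in number 1. Number 2 lay below every other library (log2 fold change -1.28 ± 0.16 (SE), adjusted p = 2.86e-04). Dpep1, a dipeptidase of glutathione breakdown, and Chac1, which degrades glutathione in the cytosol, stood at the ends of the list, at -1.29 ± 0.20 (adjusted p = 9.66e-04) and 1.33 ± 0.33 (adjusted p = 0.0109). The high Gstm3 and Gstm1 of number 2 thus went with low Gclc. This inverse order did not hold within number 3, where calcitriol and ZK 3 and vehicle 3 were above calcitriol 3 for Gstm3, Gstm1 and Gclc alike. Other glutathione transferases and their relatives were lower for 3 of 10 genes and higher for none, among them Clic5 (-0.66, adjusted p = 0.0056) and the microsomal Mgst2 (-0.64, adjusted p = 0.00121). Of 8 measured genes of other UGT, esterase and epoxide hydrolase families, 3 were lower and 2 higher. The arylacetamide deacetylase gene Aadac was at 157 to 169 TMM CPM in number 2 and 453 to 493 in number 1 (-1.57, adjusted p = 3.93e-04). The microsomal epoxide hydrolase gene Ephx1 was at 189 to 231 in number 2 and 84.6 to 90.5 in number 1 (1.29, adjusted p = 2.77e-05). Among 11 measured genes of acetyl, methyl and amino acid conjugation, 5 were higher and 3 lower. The ends of that list, Gldc of glycine cleavage (3.06, adjusted p = 8.06e-05) and Baat, which joins bile acids to amino acids (-2.71, adjusted p = 0.00114), were at 1.70 TMM CPM or less in every library.

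The genes of the sensors, read at the level of their own transcripts, were called for 7 of 20, 3 higher and 4 lower in number 2 than in number 1. Over all genes the shares were 12.2% higher and 8.25% lower. Mafg, a partner of NRF2, was higher (0.92 ± 0.14, adjusted p = 0.00114) and Rxra, the common partner of the nuclear receptors, was lower (-0.85 ± 0.11, adjusted p = 3.29e-04). The receptor genes Vdr (-0.26), Nr1i2 for PXR (0.13) and Nfe2l2 for NRF2 (-0.01) were not called, and they are named here after their values were seen. The lists of genes responsive to NRF2 and to CAR and PXR held calls of both directions. Of 18 NRF2-responsive genes outside the 47, 3 were higher and 5 lower. Hmox1, of heme breakdown, had 26.0, 8.60 and 29.2 TMM CPM in calcitriol and ZK 2, calcitriol 2 and vehicle 2, 9.91, 3.32 and 11.0 in calcitriol and ZK 3, calcitriol 3 and vehicle 3, and 2.21 to 2.48 in number 1 (log2 fold change 3.15, adjusted p = 0.00154). Ephx1 was the second in size of change here and is given above. Of 10 genes that respond to CAR and PXR, 4 were higher and 2 lower. Cyp2b10, the classical CAR target, was at 1149.7, 1075 and 1171 TMM CPM in calcitriol and ZK 2, calcitriol 2 and vehicle 2, against 427 to 471 in the other 6 libraries. The retinal dehydrogenase gene Aldh1a1 (-1.67) and the drug exporter gene Abcb1a (-1.33) were lower, with adjusted p of 9.16e-06 and 3.34e-04. Of 5 measured AHR-responsive genes, Nqo1 alone was called, at 43.8 to 45.1 TMM CPM in number 2 and 91.9 to 93.2 in number 1 (-1.06, adjusted p = 2.87e-06). Tiparp, the next of the list in level, had a log2 fold change of 0.20 (adjusted p = 0.0776). Cyp1a1, the classical AHR target, was at 0.731, 61.5 and 0.545 in calcitriol and ZK 2, calcitriol 2 and vehicle 2. Calcitriol 2 thus stood far above its partners, and the gene was not called (adjusted p = 0.171).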

How the data were processed

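The authors used a stranded kit for mRNA and sequenced 1 end of each fragment. Per the labels and the study's methods, bases were called by bcl2fastq 2.17.1.14, and the authors aligned reads with Tophat and Bowtie2 to mm10, discarded reads without a unique alignment and deposited whole-number HTSeq counts per gene, not normalized, for 48709 genes. The strand setting, the mode for overlapping genes and the annotation release were not stated. Columns were matched to samples by the digit in each sample description. The study gives 3 mice per condition, but the labels do not tie a library to a mouse or say what the number marks, so p-values measure the spread between these libraries.

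Symbols, coordinates and transcript sequences come from GENCODE M21 (GRCm38, which is mm10), and 48349 genes matched a symbol. TMM scaling and tests covered the 15002 genes that had over 100 reads and were run in R 4.3.3 with edgeR 4.0.16 (quasi-likelihood, all 9 libraries, 1 mean per treatment or per number) and Benjamini-Hochberg adjustment over these genes. Calls required a change beyond 0.58 on the log2 scale besides an adjusted p under 0.05. The SE was taken from the fold change and the F statistic. Sums over families and lists were not tested. Depth was 22561400 to 41207455 counts. Promoters are the 250 bases before RefSeq starts, in GRCm38.p6. Alternatives were DESeq2 size factors, library totals, DESeq2 1.42.0, limma 3.58.1 (voom), other read filters, no minimum fold, only the 6 libraries compared, each library left out, the number as a block for treatments and the treatment as a term for numbers.

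As a check of pairing, library values were centred on the mean of their treatment. Same-numbered libraries of calcitriol and ZK and of vehicle then correlated at 0.84 to 0.92, so the numbers were taken to pair that comparison, on the data alone, and its blocked values are given beside those of the unpaired fit. Between calcitriol and vehicle the correlation was 0.73 for number 1, 0.80 for number 2 and -0.03 for number 3. Between calcitriol and ZK and calcitriol it was 0.72, 0.80 and -0.01 in the same order.

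The members, the lists and the comparison by number were chosen with earlier results of these data known. Genes named are, per family, the 3 of highest mean and those called between number 2 and number 1 at a mean of at least 1 TMM CPM, per list the 2 called genes of largest change (with fewer called, those of highest mean), the genes nearest to the read limit, and Cyp24a1. Genes named outside this rule (Sult1a1, Sult2b1, Gstm2, Gstm4, Gstm5, Gstm7, Ugt1a6a, Ugdh, Gclc, Cyp2b10, Cyp1a1, Vdr, Nr1i2, Nfe2l2 and the tissue markers) were chosen after their values were seen.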

Additional observations from a re-analysis of the deposited data

How the results depend on the processing

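For number 2 against number 1 and number 2 against number 3, the count of the 47 genes called stayed within 1.5 times its value under each other setting (21 to 32 against 25, and 17 to 19 against 17), and over all genes it moved further only without a minimum fold, to 5751 and 3475. With 1 library left out, 22 to 27 of the 47 and 2434 to 3470 of all genes were called for number 2 against number 1, 13 to 18 and 1285 to 2328 for number 2 against number 3, and 0 to 15 and 0 to 2873 for number 3 against number 1, where only the fit without calcitriol 3 gave calls. Number 3 against number 1 also gave 2 of the 47 and 398 genes in DESeq2 and 3 and 467 with every gene that had a read. The treatment comparisons gave no call under any planned setting, 0 to 0 with 1 library left out.

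With the number as a replicate block, 0 of the 47 and 0 of all genes were called in each treatment comparison. A block in only the 6 libraries compared, added after seeing the data, called 2 genes for calcitriol and ZK against vehicle, Scand1 and H2afj (chosen after their values were seen), and none of the 47. The block changed no other call.

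Of the genes named by the rule, 24 were called against number 1 and 16 against number 3. Under the other settings these gave 720 log2 fold changes, of which 700 kept the call, 20 lost it and 0 changed sign. The setting without a minimum fold repeats the main fit, so no call could be lost there. Some of the fits left out a library of the number not compared. With Ces2g, the genes Ugt2b35, Gstt3 and Gsta1 lost the minimum fold against number 1 with library totals alone.

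By library totals alone, the log2 ratio of the family sums of number 2 to number 1 was -0.87 for Ces1, -0.14 for Ces2, -0.085 for Gsta, 1.59 for Gstm, -0.23 for Gsto, 0.20 for Gstp, -0.15 for Gstt, -0.035 for Sult, -0.71 for Ugt1 and -0.69 for Ugt2, against -1.07, -0.34, -0.28, 1.39, -0.43, 0.00, -0.34, -0.23, -0.91 and -0.88 with TMM. Without the most abundant gene of the family it was -0.94 for Ces1, 0.14 for Ces2 (Ces2e left out), -0.63 for Gsta, 0.83 for Gstm, -0.33 for Gstp, -0.46 for Gstt and -0.41 for Sult, and Gsto, with 1 gene, gave no value. As a plain ratio of number 2 to number 1, Ugt1 gave 0.54 without Ugt1a7c and 0.53 with it. Ugt2 gave 0.56 without Ugt2b34 and 0.54 with it. Depth limits the genes near 100 reads, such as Ces1c and Sult4a1, where counting error is large beside the differences.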
